A study of Mus musculus with 6 samples.

Results

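TRβ1 binding was described here at the mouse albumin family genes Alb, Afp and Afm and at the transthyretin gene Ttr. The members were all peaks of the deposited lists whose midpoint lay in 1 of 2 windows on build mm9, chromosome 5 from 90840000 to 91030000 for the Alb-Afp-Afm cluster (190 kb) and chromosome 18 from 20770000 to 20890000 for Ttr (120 kb). This gave 56 peaks of the 98191 in all 3 lists, 42 in the cluster and 14 at Ttr.

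Thyroid hormone receptor β1 (TRβ1) is a nuclear receptor that binds triiodothyronine (T3), the active thyroid hormone. It was mapped in mouse liver by capturing a biotinylated form on streptavidin agarose and sequencing the bound DNA (ChIP-seq). All mice were heterozygous for BirA, the enzyme that attaches the biotin, were 9 to 10 weeks old and ate for 3 weeks a diet with propylthiouracil (PTU), a drug that blocks the making of thyroid hormone. They then received an adenovirus through the tail vein and intraperitoneal injections for 4 days. GFP PTU livers carried virus for GFP alone and saline was injected, TRb PTU livers carried virus for GFP with biotinylated TRβ1 and saline was injected, and TRb T3 livers carried the same TRβ1 virus and T3 was injected. The captured receptor thus came from the virus and the receptor of the mouse itself was not measured. There was 1 library per condition, neither the number of animals behind a library nor the promoter in the virus is given in the sources used here, and a peak list holds no expression with which to check the tissue. TRb PTU had 51992 peaks, TRb T3 had 46092 and GFP PTU had 107, the read depth is unknown, and no test between conditions was possible.

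Albumin is the most abundant plasma protein, is made by hepatocytes, and carries fatty acids, bilirubin and, loosely, thyroid hormones. Alpha-fetoprotein (Afp) is its counterpart in the fetal liver and yolk sac and is shut down after birth, and afamin (Afm) is a related plasma glycoprotein that binds vitamin E. Transthyretin (Ttr), of an unrelated family, carries thyroxine and, through retinol-binding protein, vitamin A in the blood. Thyroid hormone receptors bind DNA mostly as heterodimers with retinoid X receptors, at repeats of a half-site close to AGGTCA, and exchange corepressors for coactivators when hormone binds. In the RefSeq gene table of GRCm38.p6 the protein-coding genes at the cluster follow in the order Ankrd17, Alb, Afp, Afm, Albfm1 and Rassf6, and Ttr lies between Dsg2 and B4galt6. Peaks were not assigned to a gene, exon, intron or promoter, because no mm9 annotation was used here.

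The promoters of Alb, Afp and Afm are shown because they are regulatory DNA of the 3 genes the window was chosen for. They are the 250 bases before the annotated start, from RefSeq on GRCm38.p6 and on the + strand, with every AGGTCA (either strand) in capitals, at chr5:90460620-90460869 for Alb, chr5:90490464-90490713 for Afp and chr5:90518699-90518948 for Afm. These positions do not apply to the mm9 peaks below, and whether a peak covers a promoter was not determined.
Alb: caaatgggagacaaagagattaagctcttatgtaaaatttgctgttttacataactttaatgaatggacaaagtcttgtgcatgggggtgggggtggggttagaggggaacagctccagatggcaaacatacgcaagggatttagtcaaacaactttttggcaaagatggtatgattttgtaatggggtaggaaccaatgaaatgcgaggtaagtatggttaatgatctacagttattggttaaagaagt
Afp: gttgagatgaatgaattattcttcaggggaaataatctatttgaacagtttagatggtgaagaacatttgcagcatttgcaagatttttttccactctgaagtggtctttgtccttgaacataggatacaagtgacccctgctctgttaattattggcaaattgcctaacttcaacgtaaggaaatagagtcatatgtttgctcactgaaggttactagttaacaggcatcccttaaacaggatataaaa
Afm: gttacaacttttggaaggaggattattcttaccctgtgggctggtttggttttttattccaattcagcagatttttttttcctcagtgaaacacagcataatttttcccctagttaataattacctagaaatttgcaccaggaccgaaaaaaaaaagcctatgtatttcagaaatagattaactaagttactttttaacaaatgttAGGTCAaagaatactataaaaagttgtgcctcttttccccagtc
The half-site AGGTCA occurred once, 44 to 39 bases before the start of Afm, and was not found in the Alb and Afp stretches. Of 32851 RefSeq promoters of the same length, 4607 held AGGTCA on either strand (14.0%). The direct repeat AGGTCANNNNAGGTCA was found in none of the 3 and in 5 of the 32851 promoters (0.0152%). The promoter of the neighbouring gene Albfm1, not shown, held neither the half-site nor the direct repeat. These are matches of letters only.

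At the Alb-Afp-Afm cluster, TRβ1 peaks were dense in both TRβ1 lists. In a single stretch, picked after the values were seen, lay 10 peaks called in TRb PTU only, most of them weak. Whether this stretch reflects the hormone state was not tested. The window held 25 TRb PTU peaks, 17 TRb T3 peaks and 0 GFP PTU peaks. A peak was called shared if it overlapped a peak of the other TRβ1 list by at least 1 bp, and otherwise PTU-only or T3-only. There were 11 shared sites, each a pair of 1 peak from either list, 14 PTU-only peaks and 6 T3-only peaks. With TRb PTU reduced to its highest-scored peaks, as many as TRb T3 has, the counts were 9 PTU-only and 8 T3-only. PTU-only peaks made up 56.0% of the TRb PTU peaks (exact 95% binomial interval 34.9 to 75.6%), against 46.1% of the whole list. T3-only peaks made up 35.3% of the TRb T3 peaks (interval 14.2 to 61.7%), against 38.7% of the whole list. The shared peaks were 44.0% of TRb PTU peaks and 64.7% of TRb T3 peaks, against 53.9% and 61.3% of the lists. All of these whole-list shares lie within the intervals, which are wide with so few peaks and cover counting error only.

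**Figure D1:**
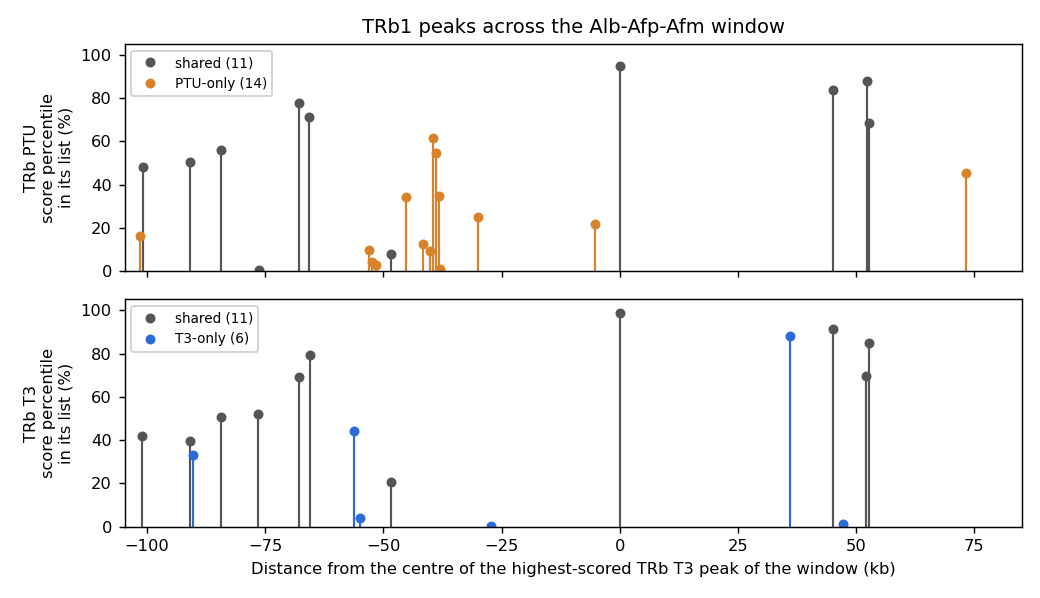
TRβ1 peaks across the Alb-Afp-Afm window, TRb PTU above and TRb T3 below, 1 library each. Each stem is a peak, placed by its distance in kb from the centre of the highest-scored TRb T3 peak, its height is the percentile of its score within its own list, and its colour gives the class (11 shared, 14 PTU-only, 6 T3-only). The PTU-only peaks crowd together where the TRb T3 panel has a single shared peak.

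Each peak carries a score from the peak calling by the authors. Its statistic is not named in the files, and it was read only as a percentile, the mid-rank of the peak among all peaks of its list. The strongest site of the window in both lists was a shared peak at 90944633 to 90944875 in TRb PTU (score 120.28, percentile 94.7) and at 90944656 to 90944895 in TRb T3 (199.37, percentile 98.6). The nearest TRb PTU peak, a PTU-only one, lay 5251 bp to its left, and the nearest other TRb T3 peak was 27203 bp away.

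The next strongest sites lay to its right in a group. In TRb PTU these were peaks at 90996841 to 90997169 (76.45, percentile 88.1) and 90989704 to 90990020 (61.07, percentile 83.9). In TRb T3 the order was 90989713 to 90990092 (97.36, percentile 91.1), 90980711 to 90981013 (81.07, percentile 87.9) and 90997382 to 90997654 (69.54, percentile 84.8). Only the second of these TRb T3 peaks was T3-only, with the nearest TRb PTU peak 8690 bp away edge to edge. It was also the highest-scored T3-only peak of the window, and 557 of the 17816 T3-only peaks of the list scored as high or higher (3.13%).

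To the left of the strongest site, a pair of shared peaks lay 2297 bp apart by their midpoints in TRb PTU. They were at 90876709 to 90876935 (46.70, percentile 77.7) and 90878967 to 90879271 (36.71, percentile 71.4) in TRb PTU, and in TRb T3 at 90876693 to 90876973 (38.66, percentile 69.3) and 90879015 to 90879300 (54.34, percentile 79.1). They complete the 5 highest peaks of the window in TRb PTU, and the second completes those in TRb T3. The other shared sites of the left part began in TRb PTU at 90843759, 90853704, 90860252 and 90868301, with scores from 3.25 to 22.68. In TRb T3 the same 4 sites scored from 16.98 to 23.41.

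A run of 11 TRb PTU peaks, 10 of them PTU-only, filled 15134 bp from 90891733 to 90906866. It was picked after the values were seen, as the longest series of TRb PTU peaks in the window with less than 5 kb between neighbouring midpoints. The TRb T3 list had 1 peak in the run, the shared one (90896395 to 90896529 in TRb PTU, score 6.32, and 10.78 in TRb T3), and the GFP list had 0. From the end of that TRb T3 peak, 20912 bp followed with 0 TRb T3 peaks and 8 TRb PTU peaks, all 8 PTU-only.

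Most peaks of the run were weak for their list. The 10 PTU-only peaks scored from 3.77 to 26.50, with a median of 7.38 (percentile 11.2), and 6 of them fell below the lower quartile of TRb PTU scores (10.55). The 3 highest were neighbours near its right end. They lay at 90905184 to 90905406 (26.50, percentile 61.4), 90905618 to 90906078 (21.76, percentile 54.5) and 90906360 to 90906584 (13.26, percentile 34.9). The first pair were the highest PTU-only peaks of the window, and the next, at 91017995 to 91018227 (17.29, percentile 45.5), lay outside the run. Among all PTU-only peaks of the list, 4089 of 23982 scored at least 26.50 (17.1%). The peak at 90905618 was 461 bp wide, the widest member at the cluster. The peaks of the run covered 16.0% of it, and midpoints of neighbours were 308 to 3668 bp apart.

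The number of PTU-only peaks in the run was set beside the counts over the whole list. Counted rightward from the midpoint of every PTU-only peak on chromosomes 1 to 19 and X, the median number within 15134 bp was 1, the first peak included, and the maximum was 10. A count of 10 was reached from 3 of 23942 starts (0.0125%), in 2 separate stretches. This length was taken from the run itself, whose own start is among the 3. Over 20 kb, 10 starts reached at least 10 PTU-only peaks (0.0418%), with a maximum of 12. Since the run was picked after the values were seen, these shares cannot show whether it is unusual. Weak peaks were often found in 1 list anywhere in the genome. Of TRb PTU peaks below the lower quartile of scores, 27.3% were shared, against 87.3% above the upper quartile. In TRb T3 these shares were 40.9% and 84.7%.

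Outside the run lay 14 TRb PTU peaks, of which 10 were shared, and 16 TRb T3 peaks, of which 10 were shared. The run was picked after the values were seen, and 10 of its 11 TRb PTU peaks are PTU-only. Leaving it out thus raises the shared part of TRb PTU, and nothing is read from these counts. The 4 PTU-only peaks outside it began at 90843249 (score 8.57), 90914735 (10.55), 90939430 (9.77) and 91017995. The first was 225 bp from a TRb T3 peak, edge to edge, and the last was 14198 bp from one.

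Apart from the peak at 90980711, the T3-only peaks of the cluster ranked low to middle in their list. The next highest lay at 90888409 to 90888586 (19.07, percentile 44.3) and 90854258 to 90854518 (14.50, percentile 32.9), the latter 298 bp from a TRb PTU peak. The remaining 3 scored 5.92, 4.38 and 3.49, all below the lower quartile of TRb T3 scores (12.04). The first of these, at 90889778, and the peak at 90888409 lay just to the left of the PTU-only run. The median score of T3-only peaks at the cluster was 10.2, against 38.7 for its shared TRb T3 peaks, and over the whole list the medians were 14.95 and 30.27.

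At Ttr no peak of the window was called in TRb PTU alone, although 2 such peaks came in when the window was extended by 20 kb on both sides. All 6 TRb PTU peaks were shared (100%, interval 54.1 to 100%), against 53.9% of the whole list, and in the extended window 81.8% were shared. The window as chosen held 8 TRb T3 peaks, of which 6 were shared and 2 T3-only (25%, interval 3.19 to 65.1%), and 0 GFP PTU peaks. T3-only peaks made up 38.7% of the whole list, which lies within that interval. The nearest GFP PTU peak lay 0.226 Mb from the closest TRβ1 peak at Ttr, and 23.6 Mb from the closest at the cluster. The difference between Ttr and the cluster was not tested.

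**Figure D2:**
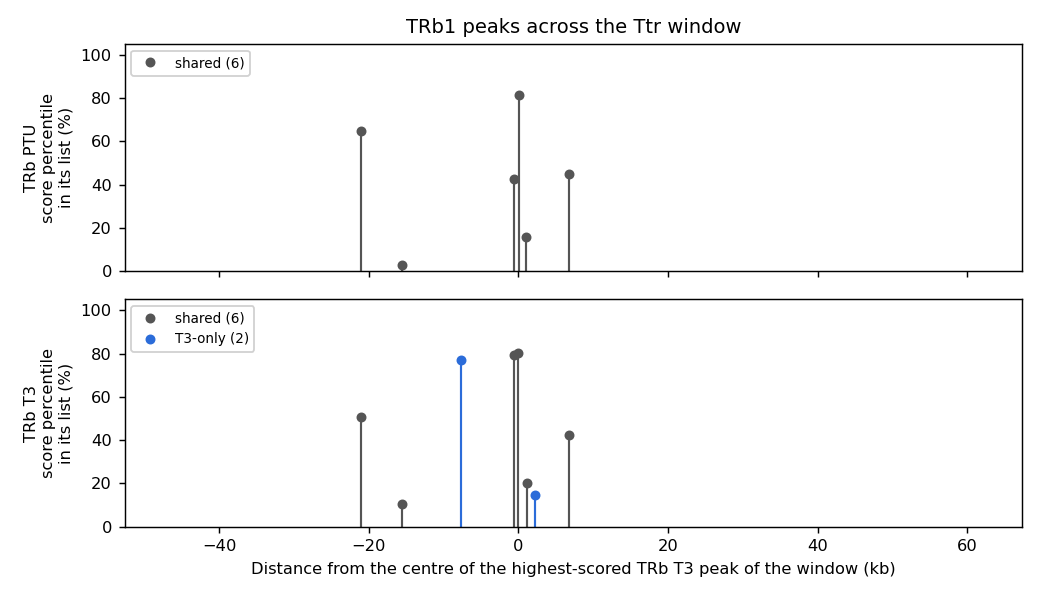
TRβ1 peaks across the Ttr window, TRb PTU above and TRb T3 below, 1 library each, with distance in kb from the centre of the highest-scored TRb T3 peak and the percentile of the score within its own list as height. The 6 shared sites appear in both panels and the 2 T3-only peaks in the lower one.

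The Ttr peaks occupied a short part of the window. From the first to the last peak they spanned 28106 bp (TRb PTU) and 28036 bp (TRb T3), and 3 shared sites lay within 1850 and 1880 bp. The strongest site of both lists was in that group, at 20822553 to 20822770 in TRb PTU (54.52, percentile 81.6) and 20822556 to 20822742 in TRb T3 (57.05, percentile 80.4). With its midpoint 619 bp to the left in TRb PTU lay a site that ranked far apart in the lists, 20821955 to 20822130 in TRb PTU (15.79, percentile 42.5) and 20821966 to 20822164 in TRb T3 (54.34, percentile 79.1). To its right lay a weak site, 20823611 to 20823804 in TRb PTU (8.55, percentile 15.8) and 20823625 to 20823845 in TRb T3 (10.73, percentile 20.2).

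The other 3 shared sites flanked this group. The leftmost was at 20801393 to 20801738 in TRb PTU (29.30, percentile 64.8) and 20801491 to 20801700 in TRb T3 (22.32, percentile 50.6). The rightmost was at 20829253 to 20829498 in TRb PTU (17.04, percentile 45.1) and 20829255 to 20829526 in TRb T3 (18.15, percentile 42.5). The weakest TRb PTU member, at 20806860 to 20807180 (4.82, percentile 3.13), was also the weakest in TRb T3 (8.24, percentile 10.7).

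The T3-only peaks at Ttr were unequal in rank. The stronger, at 20814836 to 20815056, scored 50.34 (percentile 77.2) and was 6898 bp from the nearest TRb PTU peak. Of the 17816 T3-only peaks of the list, 1548 scored as high or higher (8.69%). The weaker, at 20824739 to 20825036, scored 9.29 (percentile 14.8) and was 934 bp from a TRb PTU peak.

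Shared sites overlap between the lists by definition, so their midpoints lie close together. The midpoints of the 11 pairs at the cluster differed by a median of 21.5 bp (range 1 to 71.5 bp), and those of the 6 pairs at Ttr by 25 bp (range 12.5 to 98.5 bp), against 18.5 bp over all 27010 pairs of a single peak from each list. Scores of these pairs were ranked again within the 27010 in each list, so that both rankings have the same length. At the cluster 8 of 11 pairs ranked higher in TRb T3 (72.7%, interval 39.0 to 94.0%) and at Ttr 5 of 6 (83.3%, interval 35.9 to 99.6%), against 48.9% of all pairs. That background lies within both intervals.

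**Figure D3:**
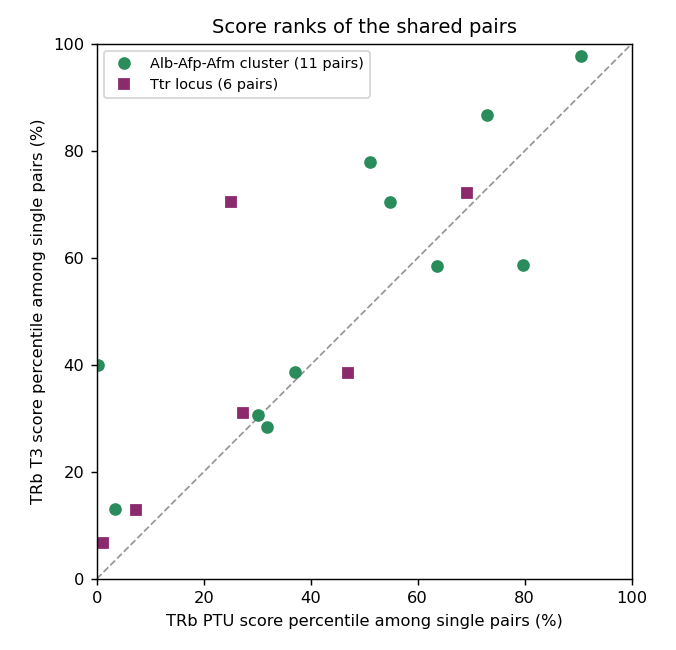
Score percentile of the 17 shared pairs among all single pairs, TRb PTU on the horizontal and TRb T3 on the vertical axis, with circles for the cluster and squares for Ttr. Points above the dashed line of equal rank are the 13 pairs that ranked higher in TRb T3.

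The rank shifts named here were picked as the largest in each window. Over all pairs the quartiles of the shift, TRb T3 minus TRb PTU, were -17.8 and 16.8 percentile points. The largest shift toward TRb T3 at the cluster was 39.8 percentile points, at the site beginning at 90868301, which scored 3.25 in TRb PTU and 23.41 in TRb T3. Its TRb PTU score stood at percentile 0.235 among the pairs, which left almost no room to fall. Of all pairs, at whatever starting rank, 9.06% moved at least as far in that direction. The largest shift toward TRb PTU was at the site beginning at 90996841, which fell by 21.0 points from TRb PTU (76.45) to TRb T3 (38.77), and 21.8% of all pairs moved at least as far that way. Its neighbour at 90997391, with its TRb PTU midpoint 519 bp away, moved by 26.8 points toward TRb T3 (32.99 and 69.54), so the stronger of these adjacent sites differed between the hormone states.

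At Ttr the site at 20821955 gained 45.4 points in TRb T3, a gain that 6.63% of all pairs reached, while the strong site beside it at 20822553 gained 2.81 points. The only Ttr pair that ranked higher in TRb PTU began at 20801393 and fell by 8.51 points. The remaining Ttr pairs gained 3.65 to 5.56 points.

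Peak density at the cluster was high for the genome and for its surroundings. With 25 TRb PTU peaks the window had 132 peaks per Mb, 6.67 times the mean of chromosomes 1 to 19 and X, and with 17 TRb T3 peaks it had 89.5 per Mb, 5.12 times the mean. Of 13845 windows of 190 kb on a grid over these chromosomes, 1.38% held at least 25 TRb PTU peaks and 3.33% at least 17 TRb T3 peaks, and the median window held 1 peak of either list. At least 14 PTU-only peaks were found in 1.05% of windows and at least 6 T3-only peaks in 5.32%. These shares are over all windows, not over windows that hold as many peaks. They therefore follow the density, and nothing about the hormone state is read from them. The flanks of the same length held 6 (left) and 4 (right) TRb PTU peaks, and 4 and 10 TRb T3 peaks. Of the 10 TRb T3 peaks on the right, 6 were T3-only, while all 4 TRb PTU peaks there were shared. Without the stretch of the run, TRb PTU density at the cluster was 4.06 times the mean, a fall that follows from removing its densest part.

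**Figure D4:**
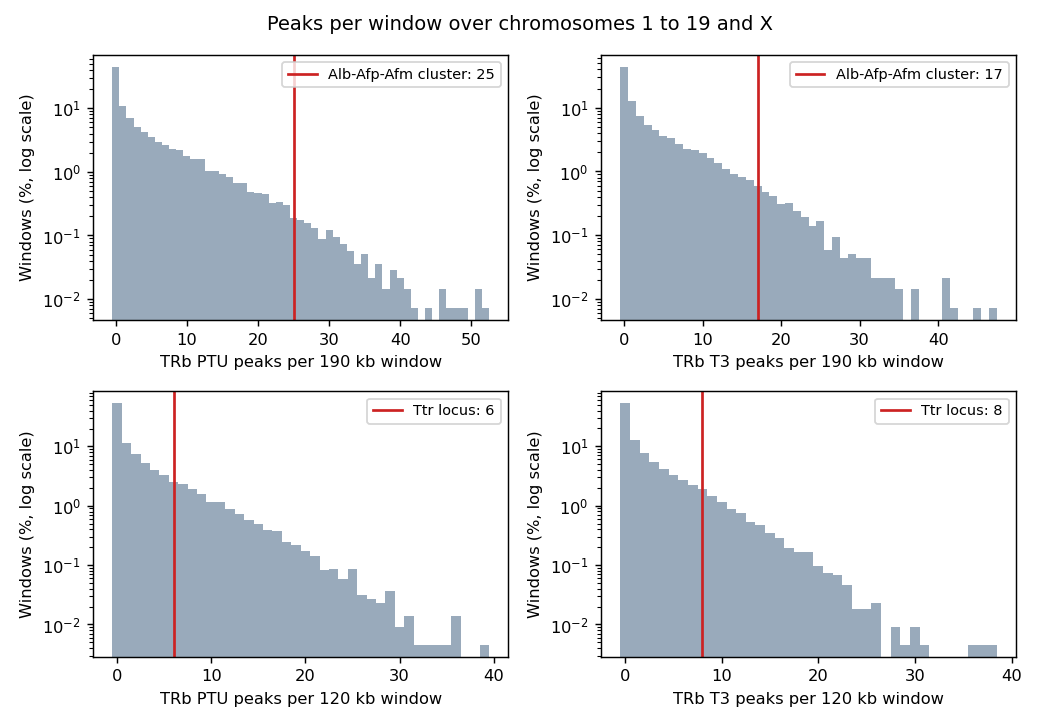
Share of windows (percent, log scale) by the number of peaks they hold, for TRb PTU (left) and TRb T3 (right), over 13845 windows of 190 kb (top) and 21929 windows of 120 kb (bottom) on chromosomes 1 to 19 and X. The red lines mark the Alb-Afp-Afm window (25 and 17 peaks) and the Ttr window (6 and 8 peaks), which lie to the right of most windows.

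Density at Ttr was less unusual. The window had 50 TRb PTU peaks per Mb, 2.54 times the mean, and 66.7 TRb T3 peaks per Mb, 3.82 times the mean. Of 21929 windows of 120 kb, 15.5% held at least 6 TRb PTU peaks and 8.65% at least 8 TRb T3 peaks. Of 562 windows with 6 TRb PTU peaks, 32 held 0 PTU-only peaks (5.69%), as the Ttr window did before it was extended by 20 kb. The flanks held 7 (left) and 4 (right) TRb PTU peaks and 3 and 5 TRb T3 peaks, and 4 of the 7 TRb PTU peaks on the left were PTU-only.

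At the cluster the median TRb PTU peak was 223 bp wide (range 134 to 461 bp) and the median TRb T3 peak 261 bp (range 137 to 380 bp), against 210 and 193 bp over the lists. At Ttr the medians were 232 bp for TRb PTU (range 176 to 346 bp) and 215.5 bp for TRb T3 (range 136 to 298 bp). By width percentile the median TRb PTU member stood at 55.2 at the cluster and 58.1 at Ttr. With the windows extended by 20 kb it stood at 49.1 and 44.0. TRb PTU members were thus not wider than their list under both choices. The median TRb T3 member stood at 75.8 at the cluster and 61.33 at Ttr, and at 74.99 and 59.01 with the windows extended. At the cluster its interval, 67.96 to 80.18, lay above the middle of the list. With the window extended the interval, 40.78 to 80.18, included the middle, as both intervals at Ttr did. The difference in width between the lists was not tested. By score the median member stood at percentile 34.9 (TRb PTU) and 50.8 (TRb T3) of its list at the cluster, and at 43.8 and 46.6 at Ttr. The cluster's TRb PTU median was 53.1 outside the run.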

How the data were processed

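The deposited files are 1 peak list per ChIP sample (GFP PTU, TRb PTU, TRb T3), with chromosome, start, end, name and score. The 3 input samples were not analysed here. The submitters' processing notes name Bowtie, SAMtools, MACS2 and build mm9, and their versions, the calling settings and the control library are not given in the sources at hand. The authors deposited a score for each peak without naming its statistic, and it was used within a list only.

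Overlaps were computed on the whole lists, with at least 1 bp for a shared peak, and the windows were read from them by midpoint. Positions are printed 1-based. Intervals are exact (Clopper-Pearson) 95% binomial intervals over peaks. Grid windows began at position 1 of each chromosome. The peaks named are the 5 highest of each TRβ1 list, the 3 highest of each class and the largest rank shifts in each window, plus members described by position. The windows, members and this rule were chosen with earlier results of these data known, and the run of PTU-only peaks, the 1 kb alternative and the values without the run were chosen after seeing the data. The overlap step was also run on the TRb T3 list with a known share of peaks shifted by part of their width and the rest taken away. Shifted peaks overlap their source by construction, so this checks the computation only. The ranking of pairs was not checked in this way. Promoters came from the RefSeq table of GRCm38.p6, matched by symbol. Python 3.11.15 was used with scipy 1.17.1, pandas 2.3.3, numpy 2.4.6 and matplotlib 3.10.9.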

Additional observations from a re-analysis of the deposited data

How the results depend on the processing

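No paired analysis was possible because only 1 library stands for a condition. Of 90 recomputed values, 81 stayed within their interval or within 1.5 times of the reported value. At the cluster the 14 PTU-only peaks became 3 when each list was restricted to scores of at least its median (2 of the run and 1 shared peak whose TRb T3 partner was removed), 9 with equal numbers of peaks (T3-only peaks then numbered 8) and 4 without the stretch of the run. The shared TRb PTU share there (44.0%) became 70.0% with the median filter and 71.4% without the stretch. The TRb PTU density (6.67 times the mean) became 4.06 without the stretch. No whole-list share was computed with the median filter, so the 70.0% has no background beside it. The changes without the stretch follow from removing mostly PTU-only peaks, and nothing is read from them. The 6 T3-only peaks became 2 with the median filter. At Ttr the 0 PTU-only peaks became 2 when the window was extended by 20 kb on both sides, and the TRb PTU density (2.54 times the mean) became 1.69 with the median filter. Midpoints within 200 bp or 1 kb and overlap of 50% of the narrower peak moved no value recomputed with them past these limits. Leaving out peaks that overlap GFP peaks could move no value, because no GFP peak lay in either window. Its 8 values are counted in the 81. Wide intervals also let large changes pass, as when the shared part of TRb T3 at Ttr went from 75% to 50% with the median filter. Unknown depth limits every count.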

Other observations

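The other place where 10 PTU-only TRb PTU peaks fell within 15134 bp was on chromosome 7, from a first midpoint at 52961344. It was picked for this count and held 6 TRb T3 peaks, against 1 in the run at the Alb-Afp-Afm cluster.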
